A study of Mus musculus with 18 samples.

Results

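Burst-forming erythroid progenitors (BFU-E) that formed in the spleen under stress were set against the stages on either side of them, multipotent progenitors (MPP) before and colony-forming erythroid progenitors (CFU-E) after. The comparison used 9 RNA libraries of the 18 samples in the series, 3 libraries of stress BFU-E, 3 of stress MPP and 3 of stress CFU-E. All came from mice of strain B6SJL, from spleens taken at day 8 after lethal irradiation and a transplant of unfractionated marrow cells. The sorts were named after Sca1-negative cells for BFU-E, Sca1-positive cells for MPP and CD9-negative cells for CFU-E. A further 3 RNA libraries of BFU-E from steady-state bone marrow, and ATAC-seq of both BFU-E populations, served as readouts that the comparison itself did not use. All cells had been depleted of lineage-positive cells with antibodies against Ter-119, Gr-1, B220, CD8 and CD4. The labels name no marker that separates donor from host cells, and they do not say whether a library holds the cells of a single animal or of a pool. P-values therefore measure the spread between these samples, part of which may be technical.

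Stress erythropoiesis is the emergency production of red cells, which in mice runs largely in the spleen. Progenitors pass through a BFU-E stage, which still divides many times, to a CFU-E stage that depends on erythropoietin. The erythroid and the megakaryocyte lines, which give red cells and platelets, share progenitors and many of their regulators, among them Gata1, Gata2, Tal1, Fli1 and Zfpm1. A gene can therefore climb or decline steadily from MPP to CFU-E, or it can have its highest or lowest level at the BFU-E stage, and the contrast of BFU-E with the equal-weight mean of both neighbours looks for the second kind.

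Of 24072 genes in the table, 10166 had a mean of 50 or more counts and were tested in a fit of the 9 libraries with edgeR's quasi-likelihood test and Benjamini-Hochberg adjustment. Against the mean of MPP and CFU-E, 790 genes passed an adjusted p of 0.05, which is 7.77% of the genes tested, and 1975 had an unadjusted p under 0.05. In BFU-E 507 of them were higher (4.99%) and 283 lower (2.78%). A call against the mean does not make BFU-E the extreme stage. Of the 507, 373 had a level above both neighbours and 134 lay between them, and of the 283, 232 lay below both and 51 between them. The stricter demand that BFU-E also differ from MPP and from CFU-E, each at an adjusted p of 0.05, left 79 peaking genes (0.777%) and 39 dipping genes (0.384%). These counts include genes of the sort antigens, Cd9 among the peaking and Ly6a, Kit and Cd24a among the dipping genes. Their differences cannot be told apart from the gates. In 350 genes (3.44%) every BFU-E library lay above all 6 others, and in 227 (2.23%) every BFU-E library lay below them.

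The gap to CFU-E carried much of the contrast. BFU-E differed from MPP in 206 genes that were higher (2.03%) and 214 that were lower (2.11%), and from CFU-E in 1213 that were higher (11.9%) and 932 that were lower (9.17%). Among the 79 peaking genes, 67 had the larger gap to CFU-E, with a median log2 fold change of 0.79 over MPP and 1.33 over CFU-E. Among the 39 dipping genes the gaps were even, at medians of −1.08 against MPP and −1.06 against CFU-E, and 19 had the larger gap to CFU-E. Nearest the threshold stood Gstm5 (adjusted p = 0.0497) and Cst7 (0.0498) inside it, and Cers6 (0.0503) and Cdk11b (0.0506) outside, all by edgeR.

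**Figure D1:**
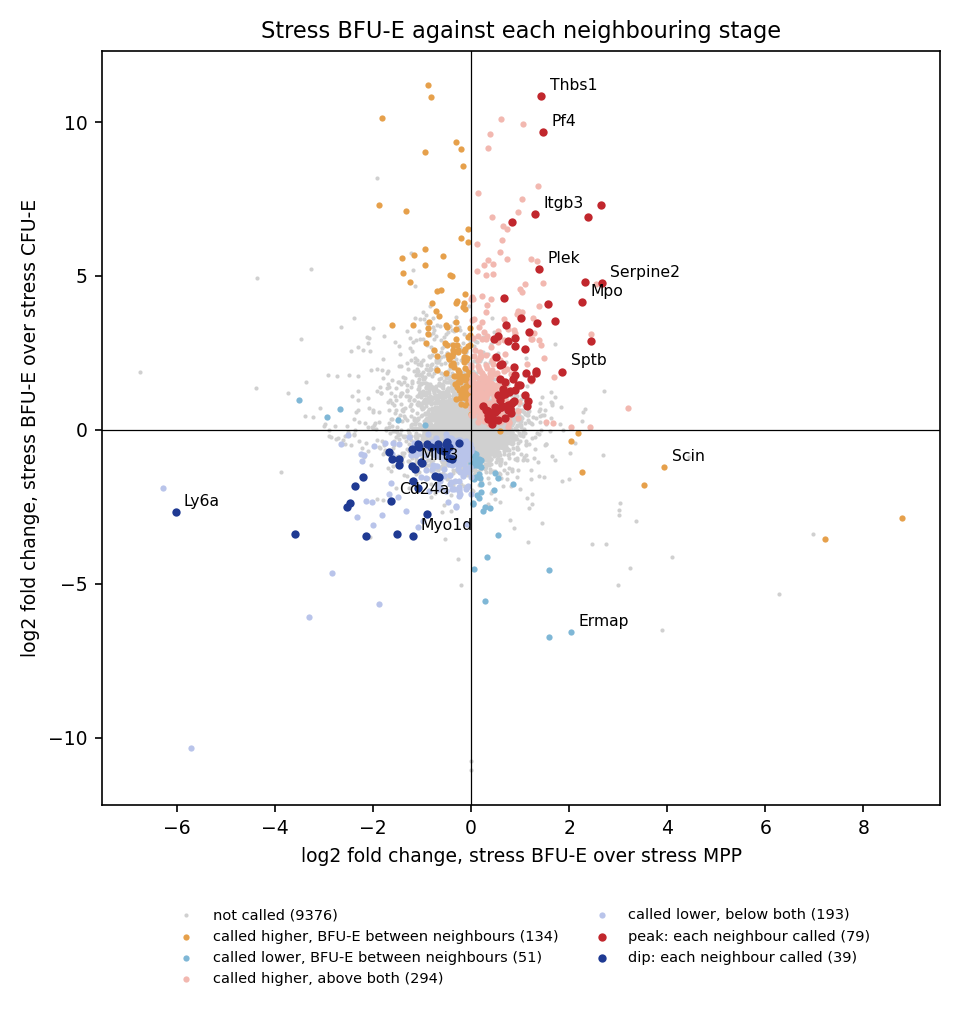
Each point is 1 of the 10166 genes tested, with the log2 fold change of stress BFU-E over stress MPP on the horizontal axis and over stress CFU-E on the vertical axis. The 79 peaking genes lie to the upper right and the 39 dipping genes to the lower left; called genes to the upper left and lower right have BFU-E between its neighbours.

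Total counts per library ranged between 10598773 and 12978458 for BFU-E, between 5937778 and 13197159 for MPP and between 9884686 and 12663624 for CFU-E. Levels correlated at 0.958 to 0.964 among BFU-E libraries, 0.929 to 0.947 among MPP and 0.956 to 0.966 among CFU-E (Pearson's r on the log2 scale over genes, and genes are no independent replicates). The precursor of ribosomal RNA, Rn45s, took between 10.6% and 11.4% of the counts in BFU-E, between 16% and 22.6% in MPP and between 10.3% and 12.9% in CFU-E. The markers of the stages followed the labels in part. Levels are given as CPM, the counts of a gene scaled by library size and TMM factor. Gata1, the main erythroid regulator, averaged 114 CPM in BFU-E, 71.5 in MPP and 159 in CFU-E, and Klf1, the erythroid Krüppel-like factor, 28.6, 12.1 and 150.5 CPM in the same groups. Epor, the erythropoietin receptor, averaged 22.5 CPM in BFU-E, 27.3 in MPP and 54.8 in CFU-E, and Kit, the stem cell factor receptor, 303, 431 and 492 CPM, so both were lower in BFU-E than in MPP by their means. The adult globin genes Hbb-bs and Hba-a1 were under 10 CPM in every library. Ly6a, which encodes the Sca1 antigen of the sort, averaged 0.286 CPM in BFU-E, 19.8 in MPP and 1.94 in CFU-E.

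The clearest group among the peaking genes belonged to megakaryocytes and platelets. Of 28 genes listed for that line 25 were tested. Of the 25, 22 (88%) were higher in BFU-E than the mean of its neighbours and 11 peaked. For this and every list below, the shares over all genes tested were 4.99% higher, 2.78% lower, 0.777% peaking and 0.384% dipping. All 25 fitted values were above 0, as were 5172 of 10166 over all genes tested. The median log2 fold change of the list was 2.19, where it was 0.0061 over all genes tested. Tubb1, Gfi1b and Nfe2 did not pass the test, at log2 fold changes of 1.21, 0.37 and 0.21. The larger part of the gap lay with CFU-E. The median of the list was 0.671 over MPP, with 11 members called higher, and 4.03 over CFU-E, with 24 called higher. The summed level of the list was 4027 to 4531 CPM in BFU-E, 2594 to 2775 CPM in MPP and 521 to 550 CPM in CFU-E, so the 3 groups did not overlap. Without each library in turn, 21 or 22 members stayed called higher and 6 to 12 peaked, the fewest without BFU-E 1. In bulk samples, more cells of the megakaryocyte line within the gate and more RNA of these genes in each cell cannot be told apart. The CFU-E were sorted as CD9-negative and CD9 is also an antigen of this line, so the gap of these genes to CFU-E cannot be told apart from that gate.

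The sequence just before the start of 2 of these genes is shown because their products are the standard marks of the line, and because intervals of accessible chromatin in both BFU-E populations covered the starts. The 250 bases upstream, from RefSeq on GRCm38.p6 and read 5′ to 3′ on the strand of the gene, lie at chr5:90772185-90772434 (plus strand) for Pf4 and at chr11:102469884-102470133 (minus strand) for Itga2b. Capitals mark matches to the letters of the ETS family, CGGAAG or AGGAAG, or of the GATA family, AGATAA or TGATAA, on either strand.
Pf4: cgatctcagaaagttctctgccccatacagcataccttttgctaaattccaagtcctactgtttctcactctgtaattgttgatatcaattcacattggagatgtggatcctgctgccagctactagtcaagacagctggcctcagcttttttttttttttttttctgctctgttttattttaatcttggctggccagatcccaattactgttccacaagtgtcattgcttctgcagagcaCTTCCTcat
Itga2b: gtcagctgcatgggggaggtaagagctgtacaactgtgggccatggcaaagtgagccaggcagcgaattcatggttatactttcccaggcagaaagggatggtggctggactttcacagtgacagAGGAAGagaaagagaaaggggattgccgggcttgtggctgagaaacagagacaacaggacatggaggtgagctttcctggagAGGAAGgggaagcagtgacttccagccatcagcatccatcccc
Pf4 held 1 ETS match, CTTCCT, at bases 9 to 4 before the start, and Itga2b held 2, AGGAAG at bases 125 to 120 and again at 43 to 38. Neither held the GATA letters in this window. The same window of Plek, another peaking gene, held neither the ETS nor the GATA letters. Over the 63 peaking genes with a matched promoter, 55.6% held the ETS letters and 7.94% the GATA letters, against 49.0% and 8.43% of the 7615 promoters of tested genes. The letters TGTGGT of the RUNX family were in 15.9% against 10.4%, and CACCC of the KLF family in 63.5% against 56.2%. No set of letters was searched beyond these 4, and a match describes the sequence only.

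Itga2b encodes the alpha subunit (CD41) of the platelet fibrinogen receptor. It was at 766, 783 and 721 CPM in BFU-E, at 382, 409 and 327 CPM in MPP and at 62.8, 57.7 and 62.3 CPM in CFU-E. The lowest BFU-E library stood well above the highest MPP library. The log2 fold change was 1.02 over MPP (SE 0.10, edgeR adjusted p = 1.13e-06) and 3.63 over CFU-E (SE 0.11, adjusted p = 1.20e-15). Itgb3, the beta subunit of the same receptor, was at 274, 233 and 227 CPM in BFU-E, 99.3, 96.9 and 102 CPM in MPP and 2.01, 2.29 and 1.32 CPM in CFU-E. It passed both tests, with log2 fold changes of 1.30 and 7.00 over MPP and CFU-E. Pf4, the chemokine stored in platelet granules, was at 282, 305 and 228 CPM in BFU-E, at 95.4, 105 and 92.3 CPM in MPP and under 1 CPM in each CFU-E library. Its log2 fold change over MPP was 1.48 (SE 0.18, edgeR adjusted p = 2.88e-05).

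Plek encodes pleckstrin, the major substrate of protein kinase C in platelets, and was at 516, 518 and 480 CPM in BFU-E, 241, 185 and 150 CPM in MPP and 12.6, 16 and 11.8 CPM in CFU-E. It peaked with a log2 fold change of 1.39 over MPP (SE 0.14, edgeR adjusted p = 2.38e-06) and 5.22 over CFU-E (SE 0.17). Thbs1, thrombospondin of platelet granules, was at 148, 114 and 120 CPM in BFU-E and at 29.4, 19.5 and 92.7 CPM in MPP. The CFU-E libraries held 2 counts of Thbs1 in all against 4741 in BFU-E, a ratio of 2220 with a 95% counting interval of 614 to 18300. Its call over MPP (edgeR adjusted p = 0.0230) was lost without any BFU-E library and without MPP 1 or MPP 2, with the highest adjusted p, 0.116, without BFU-E 1. Serpine2, a protease inhibitor that acts on thrombin, was at 49.5, 66.7 and 38.9 CPM in BFU-E, 15.1, 7.6 and 1.03 CPM in MPP and 0.387, 4.49 and 0.712 CPM in CFU-E. The BFU-E libraries lay above all 6 others, as the rule for named genes required. The call of Serpine2 over MPP (edgeR adjusted p = 0.0212) was lost without BFU-E 1, BFU-E 2, MPP 2 or MPP 3, at 0.116 at most, and with DESeq2 (0.131).

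**Figure D2:**
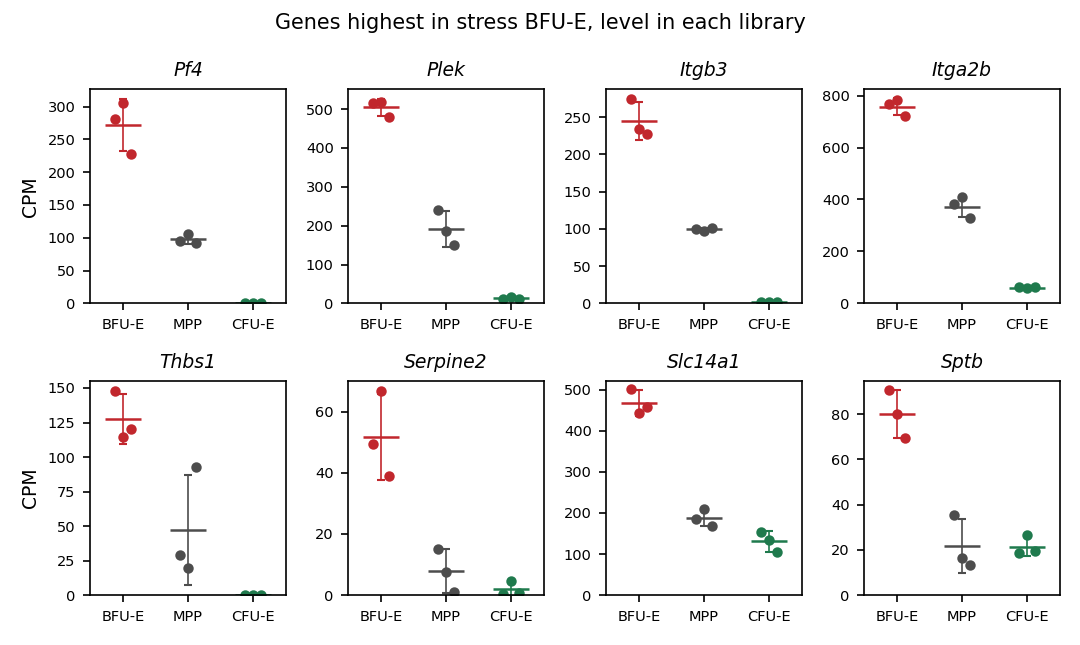
Level in CPM (vertical axis, linear, from 0) of 8 peaking genes in each library, with the stress BFU-E left of MPP and CFU-E; lines are group means and bars are ± 1 SD over 3 libraries. All 3 BFU-E libraries lie above the 6 others in each gene, which the rule for named genes required of all but Itga2b and Itgb3. In Thbs1 a single MPP library comes nearest, at 92.7 CPM.

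A further 4 peaking genes, F2r, Syk, Gp5 and Rap1b, were chosen after their values were seen. The thrombin receptor F2r was at 488, 552 and 521 CPM in BFU-E, 287, 332 and 281 CPM in MPP and 193, 220 and 237 CPM in CFU-E, and passed both tests (log2 fold change 0.79 over MPP, edgeR adjusted p = 5.56e-05). Syk, the tyrosine kinase behind several platelet receptors, averaged 482 ± 13 CPM in BFU-E, 298 ± 12.5 in MPP and 164 ± 16.9 in CFU-E (SD, n = 3 each). Gp5, of the von Willebrand factor receptor, averaged 83.1 ± 5.58, 35.4 ± 12.1 and 26.3 ± 5.44 CPM in BFU-E, MPP and CFU-E. Rap1b, the small GTPase that turns on platelet integrins, averaged 837 ± 85.2, 494 ± 88.5 and 112 ± 18.0 CPM in the same order. Each of the 4 kept its place above both neighbours without every single library. The regulator Fli1, which drives many megakaryocyte genes, was at 411, 414 and 370 CPM in BFU-E, 318, 240 and 310 CPM in MPP and 49.4, 51.4 and 52.1 CPM in CFU-E. Its gap to MPP was small (log2 fold change 0.46, edgeR adjusted p = 0.0229) and lost its call without BFU-E 1, BFU-E 2 or MPP 2, at 0.106 at most.

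Other members were higher than the mean without peaking. Vwf, von Willebrand factor, was at 573, 616 and 497 CPM in BFU-E and at 495, 455 and 411 CPM in MPP, which overlap, and averaged 17.2 CPM in CFU-E. Mmrn1, the platelet protein multimerin, was at 169, 173 and 143 CPM in BFU-E, 185, 174 and 165 CPM in MPP and 6.28, 8.64 and 8.03 CPM in CFU-E. Its log2 fold change over the mean was 2.15 (edgeR adjusted p = 7.33e-11) and over MPP −0.11 (adjusted p = 0.776). Coro2a, Plcg2 and Scarf1, named as the other genes with the smallest p among those that were higher and between, had the same shape, with log2 fold changes over MPP of −0.03, −0.14 and −0.28 and over CFU-E of 3.32, 2.55 and 4.19.

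Of 19 tested genes of the red cell membrane and blood groups, 3 were higher and 2 lower than the mean of the neighbours, 2 peaked, and the median was 0.09. Slc14a1, the urea transporter that carries the Kidd blood group, was at 502, 442 and 458 CPM in BFU-E, 185, 208 and 168 CPM in MPP and 154, 133 and 104 CPM in CFU-E. BFU-E lay above both neighbours without overlap, as the rule for named genes required. The log2 fold change was 1.32 over MPP (SE 0.13, edgeR adjusted p = 1.39e-06) and 1.84 over CFU-E (SE 0.13, adjusted p = 1.10e-09). Sptb, the spectrin beta chain, was at 90.7, 79.9 and 69.3 CPM in BFU-E, 35.3, 16.6 and 13.3 CPM in MPP and 18.4, 26.4 and 19.6 CPM in CFU-E, with log2 fold changes of 1.86 and 1.89 over MPP and CFU-E.

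Other members named by the rule climbed from MPP to CFU-E instead. Ermap, an erythroblast membrane protein, averaged 4.06 CPM in BFU-E, 1.08 in MPP and 393 in CFU-E. Ank1, the ankyrin that anchors the spectrin skeleton, averaged 10.3 CPM in BFU-E, 3.19 in MPP and 242 in CFU-E. Both were lower than the mean of the neighbours although they were higher in BFU-E than in MPP. Without MPP 3, the call of Ermap against the mean was lost (edgeR adjusted p = 0.308). Add2, adducin, was called higher than the mean with 268 counts in BFU-E and 1 in MPP (ratio 192, counting interval 34.2 to 7610), while CFU-E averaged 85.7 CPM against 7.26 CPM in BFU-E. Tspo2, a cholesterol and haem related membrane protein of erythroblasts, had 0 counts in MPP and was at least 43.9-fold higher in BFU-E at a floor of 3 counts over the group; CFU-E averaged 36.4 CPM against 5.04 CPM in BFU-E. The mean of the neighbours is a mean of log2 levels, so that a neighbour near 0 lowers it strongly. The call of Add2 was lost without BFU-E 3 (edgeR adjusted p = 0.0639).

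Of 20 tested erythroid regulators 2 were higher and 5 lower than the mean, and 1 peaked. Of 16 haem synthesis genes 1 was higher and 2 were lower. The peaking regulator was Zfpm1 (Fog1), the partner of Gata1, at 1172, 1126 and 1146 CPM in BFU-E, against 885, 804 and 933 CPM in MPP and 781, 848 and 750 CPM in CFU-E. Its log2 fold changes were 0.39 over MPP (SE 0.08, edgeR adjusted p = 0.00377) and 0.53 over CFU-E (SE 0.08). Myb, which keeps progenitors dividing, was lower than the mean at 719, 685 and 814 CPM in BFU-E, against 785, 823 and 849 CPM in MPP and 1800, 1905 and 2107 CPM in CFU-E, and its gap to MPP did not pass (−0.15, adjusted p = 0.393). Gata1 and Klf1 lay between the neighbours and did not pass against the mean (0.09 and −0.58). Of 12 tested genes of haemoglobin and red cell maturation 6 were lower, and 1 of them dipped. That was Car2, carbonic anhydrase, at 337, 348 and 373 CPM in BFU-E, 450, 461 and 482 CPM in MPP and 706, 655 and 682 CPM in CFU-E. The gap of Car2 to MPP was lost without BFU-E 1 (edgeR adjusted p = 0.0598). Epor was at 20.5, 18.2 and 28.7 CPM in BFU-E, 19.6, 39.2 and 23.1 CPM in MPP and 51.5, 61.6 and 51.3 CPM in CFU-E. Its call against the mean (−0.78, adjusted p = 0.0470) was lost without 6 of the 9 libraries, at 0.235 at most, and when the count minimum was lowered to a mean of 10 (0.0544).

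The proteins that shape the actin skeleton, which platelets need to change form, were next in number. Of 31 tested members 12 (38.7%) were higher and 2 (6.45%) lower than the mean, against 4.99% and 2.78% of all genes tested. Without single libraries 8 to 12 were higher. Against MPP alone 6 members were called higher and 3 lower, with a median of 0.126. Against CFU-E 16 were called higher and 4 lower, with a median of 0.262. Zyx, zyxin of focal adhesions, was at 452, 540 and 505 CPM in BFU-E, 290, 279 and 251 CPM in MPP and 132, 105 and 129 CPM in CFU-E (log2 fold change 0.87 over MPP, SE 0.11, edgeR adjusted p = 3.69e-05). Tmsb4x, thymosin beta 4, which binds free actin, was at 603, 666 and 573 CPM in BFU-E, 365, 515 and 372 CPM in MPP and 65.8, 69.7 and 86.6 CPM in CFU-E. Tln1, talin, which links integrins to actin, was at 2304, 2244 and 2242 CPM in BFU-E, 2127, 1857 and 1768 CPM in MPP and 1299, 1301 and 1353 CPM in CFU-E. Tmsb4x no longer peaked without BFU-E 1, BFU-E 2, MPP 1 or MPP 3, with an edgeR adjusted p over MPP of 0.0901 at most. Tln1 kept its peak without only 2 of the 9 libraries, MPP 1 and CFU-E 3, with an adjusted p of 0.175 at most. A different actin protein dipped. Lcp1, the plastin of blood cells, which bundles actin, was at 121, 107 and 113 CPM in BFU-E, 266, 258 and 255 CPM in MPP and 178, 174 and 174 CPM in CFU-E (−1.20 against MPP, SE 0.11, adjusted p = 4.48e-07, and −0.63 against CFU-E, SE 0.11, adjusted p = 1.76e-04).

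**Figure D3:**
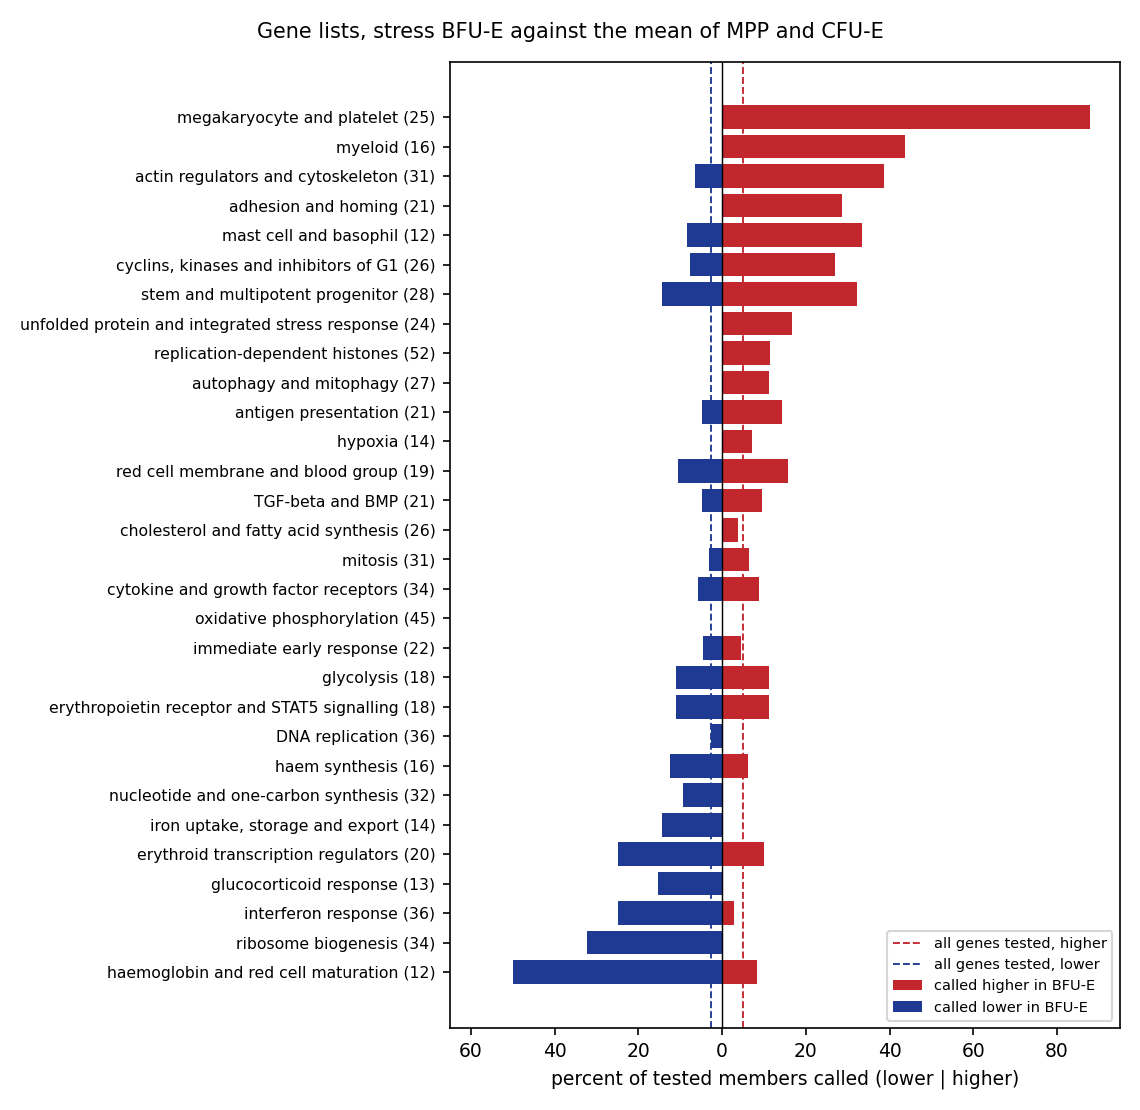
Percent of the tested members of each gene list (number tested in brackets) that were called higher (right) or lower (left) in stress BFU-E than in the mean of MPP and CFU-E, for lists with 10 or more tested members. The dashed lines are the shares over all genes tested, 4.99% higher and 2.78% lower; the megakaryocyte and platelet list reaches 88% and oxidative phosphorylation 0%.

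Genes of granulocytes and monocytes were higher in BFU-E than the mean in 7 of 16 tested members (43.8%, against 4.99% of all genes tested). Of the 16 fitted values 15 were above 0, as were 5172 of 10166 over all genes tested. The gap lay mostly with CFU-E. The median was −0.26 against MPP, with 2 members called higher, and 2.08 against CFU-E, with 8 called higher. BFU-E lay above both neighbours in 7 of the 16, against 2644 of 10166 over all genes tested. Mpo, myeloperoxidase, was at 493, 508 and 603 CPM in BFU-E, 285, 18.3 and 23.3 CPM in MPP and 41.2, 16.6 and 33.0 CPM in CFU-E. MPP 1 stood apart from MPP 2 and MPP 3. The BFU-E libraries lay above all others, as the rule for named genes required. The log2 fold change over MPP was 2.26 (SE 0.59, edgeR adjusted p = 0.0326), and the call was lost without any BFU-E library, MPP 2 or MPP 3, at 0.113 at most, and DESeq2 gave it no adjusted p. Elane, neutrophil elastase, had the same spread, at 47.5, 47.4 and 73.9 CPM in BFU-E, 27.1, 0 and 0 CPM in MPP and 3.87, 0.169 and 2.24 CPM in CFU-E. Lyz2, lysozyme, did not, at 66.2, 41.9 and 42.8 CPM in BFU-E and 76.6, 50.6 and 59.3 CPM in MPP. The summed level of the list was 786 to 999 CPM in BFU-E, 241 to 802 CPM in MPP and 58.9 to 148 CPM in CFU-E. The part that myeloid cells within the gates had in these values was not tested. Of 15 macrophage genes 4 passed the count minimum, and their list summed to 35.6 to 51 CPM in BFU-E, 21 to 50.4 CPM in MPP and 61.8 to 87.2 CPM in CFU-E. Adgre1 was at 0 in all libraries but BFU-E 3 and C1qa at 0 in all but CFU-E 1, while Cd68 was at 2.68 to 10.03 CPM in BFU-E, 4.13 to 21 CPM in MPP and 6.94 to 8.95 CPM in CFU-E. Of the genes that define mast cells and basophils, Cpa3, Ms4a2, Fcer1a, Mcpt8 and Prss34 were under 10 CPM in every library. The wider list of 26 such genes had 12 tested. Of these, 4 were higher than the mean (33.3%, against 4.99% of all genes tested) and 1 was lower, with a median of 0.396. Its summed level overlapped between groups, at 1242 to 1451 CPM in BFU-E, 1316 to 1419 CPM in MPP and 1142 to 1408 CPM in CFU-E.

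Further peaking genes come from no single list. Pde5a, which breaks down cyclic GMP, was at 147, 159 and 167 CPM in BFU-E, 65.4, 68.6 and 54.3 CPM in MPP and 30.8, 42.8 and 53.2 CPM in CFU-E. Mrvi1, a substrate of the kinase that cyclic GMP activates, was at 90.5, 98.4 and 83.3 CPM in BFU-E, 23.3, 23.7 and 7.48 CPM in MPP and 1.39, 3.73 and 4.78 CPM in CFU-E. Both passed against each neighbour without any single library. Robo3, a receptor known from axon guidance, averaged 92.8 ± 16.1 CPM in BFU-E, 31.1 ± 9.66 in MPP and 5.52 ± 2.02 in CFU-E. Slc35d3, which platelet dense granules need in the mouse, averaged 138 ± 9.66, 53.7 ± 17.4 and 12.6 ± 1.91 CPM in BFU-E, MPP and CFU-E. The potassium channel gene Kcnj5 was at 86.6, 55.1 and 49.9 CPM in BFU-E, 7.53, 24.7 and 5.29 CPM in MPP and under 2 CPM in CFU-E. F13a1 encodes the catalytic chain of clotting factor XIII and was at 37.1, 24.1 and 29.98 CPM in BFU-E, 3.72, 8.81 and 2.19 CPM in MPP and under 1 CPM in CFU-E. Dhrs3, a retinaldehyde reductase, averaged 30.04 ± 1.21, 9.20 ± 4.39 and 2.57 ± 1.49 CPM in BFU-E, MPP and CFU-E. The calls of Kcnj5, F13a1 and Dhrs3 over MPP had edgeR adjusted p of 0.0162, 0.0174 and 0.0417. Each was lost without BFU-E 1, MPP 1, MPP 3 and further BFU-E libraries, at 0.136, 0.125 and 0.143 at most. With DESeq2, the adjusted p over MPP was 0.338 for Kcnj5, 0.0836 for F13a1 and 0.00713 for Dhrs3.

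Tgfb1, the growth factor TGF-beta 1, which slows progenitor division, was at 760, 775 and 800 CPM in BFU-E, 560, 443 and 515 CPM in MPP and 479, 501 and 408 CPM in CFU-E. It peaked with log2 fold changes of 0.62 over MPP (SE 0.10, edgeR adjusted p = 4.08e-04) and 0.75 over CFU-E (SE 0.10), also without each single library. Of 21 tested genes of the TGF-beta and BMP pathways 2 were higher and 1 was lower. The latent TGF-beta binding protein gene Ltbp1 averaged 65.2 ± 16.6 CPM in BFU-E, 6.82 ± 3.65 in MPP and 39.98 ± 9.47 in CFU-E, and its gap to CFU-E did not pass (0.71, adjusted p = 0.0916). Ndrg1, known to rise under low oxygen and in differentiating cells, was at 223, 195 and 185 CPM in BFU-E, 93.7, 117 and 123 CPM in MPP and 44.5, 86.4 and 61.3 CPM in CFU-E. It was the only called gene of 14 in the hypoxia list, and its gap to MPP was lost without BFU-E 1 (adjusted p = 0.0601).

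Survival and signalling genes downstream of erythropoietin did not move as a group. Of 18 tested, 2 were higher and 2 lower than the mean, with a median of 0.0321. Bcl2l1 encodes Bcl-xL, which protects erythroid cells from death, and was at 67.6, 92.1 and 74.7 CPM in BFU-E, 71.8, 78.1 and 74.0 CPM in MPP and 19.1, 11.9 and 12.9 CPM in CFU-E. BFU-E overlapped with MPP (log2 fold change 0.07, edgeR adjusted p = 0.924) and lay above CFU-E (2.41, adjusted p = 2.46e-08). Ptpn6 (SHP-1), the phosphatase that ends signals of the erythropoietin receptor, dipped at 179, 126 and 131 CPM in BFU-E, 207, 239 and 254 CPM in MPP and 188, 213 and 203 CPM in CFU-E. Its gap to CFU-E was lost without BFU-E 2, BFU-E 3 or CFU-E 2, with an edgeR adjusted p of 0.0976 at most. Il6ra, the interleukin 6 receptor, had 1 BFU-E library apart from the others, at 27.3, 9.97 and 6.06 CPM in BFU-E and 7.53, 2.07 and 7.35 CPM in MPP.

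Adhesion receptors were higher than the mean in 6 of 21 tested members (28.6%, against 4.99% of all genes tested), none of them peaking. The integrin genes Itga2b and Itgb3, which peaked, were counted with the megakaryocyte genes and not in this list. Itga6, the alpha 6 integrin that binds laminin, averaged 300.2 ± 27.98 CPM in BFU-E, 271 ± 12.8 in MPP and 106 ± 21.5 in CFU-E, and its gap to MPP did not pass (0.14, edgeR adjusted p = 0.667). Chaperones of the endoplasmic reticulum were close to that shape, with 4 of 24 members of the unfolded protein list higher. Hsp90b1, a chaperone of secreted and membrane proteins, had a log2 fold change of 0.23 over MPP (adjusted p = 0.166) and 0.47 over CFU-E (adjusted p = 4.11e-04), and its call against the mean was lost without BFU-E 1 (0.0578). Optn, an adaptor that brings damaged mitochondria to autophagosomes, lay between its neighbours, at 102, 101 and 108 CPM in BFU-E, 20.1, 20.4 and 24.6 CPM in MPP and 237, 266 and 301 CPM in CFU-E. It was higher than the mean (0.44, edgeR adjusted p = 0.0171) and the 3 groups did not overlap, but the call was lost without BFU-E 1 or BFU-E 3, at 0.0927 at most.

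Antibodies against CD9, c-Kit, CD24a, CD150 and CD71 were used in the sorts, so the levels of their genes are given as a description. Cd9 averaged 149 ± 13.99 CPM in BFU-E, 79.8 ± 4.81 in MPP and 18.7 ± 7.34 in CFU-E, and was classed as peaking. Kit was at 250, 330 and 329 CPM in BFU-E, 401, 454 and 437 CPM in MPP and 486, 453 and 537 CPM in CFU-E, and dipped. Cd24a, the heat stable antigen, was at 42.9, 33.7 and 30.4 CPM in BFU-E, 95.8, 124 and 112 CPM in MPP and 188, 197 and 140 CPM in CFU-E, and dipped as well. Slamf1 (CD150) and Tfrc (CD71) did not pass against the mean, at log2 fold changes of 0.14 and −0.42.

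The dips were fewer and their genes more scattered in function. The starts of Grb10 and Mllt3 are shown as 2 examples. Both genes are known as growth or stem cell regulators, and both had an ATAC interval over the start in each BFU-E population. They lie on the minus strand at chr11:12037421-12037670 and chr4:88033408-88033657 (RefSeq, GRCm38.p6), and neither held the ETS or GATA letters.
Grb10: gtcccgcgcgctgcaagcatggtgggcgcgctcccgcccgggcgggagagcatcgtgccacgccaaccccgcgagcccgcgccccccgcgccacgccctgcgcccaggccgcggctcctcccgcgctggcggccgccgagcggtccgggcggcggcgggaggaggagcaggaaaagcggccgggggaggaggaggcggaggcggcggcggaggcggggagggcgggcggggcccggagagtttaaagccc
Mllt3: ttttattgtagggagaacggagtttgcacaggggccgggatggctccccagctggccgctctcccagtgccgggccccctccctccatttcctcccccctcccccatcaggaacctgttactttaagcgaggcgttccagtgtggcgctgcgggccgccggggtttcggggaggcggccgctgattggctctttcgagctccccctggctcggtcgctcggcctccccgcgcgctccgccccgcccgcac
Grb10, an adaptor that damps growth factor receptors, was at 103, 60.3 and 80.8 CPM in BFU-E, 179, 162 and 212 CPM in MPP and 262, 267 and 240 CPM in CFU-E. Every BFU-E library lay below every other, as the rule for named genes required. The log2 fold change was −1.18 against MPP (SE 0.16, edgeR adjusted p = 5.44e-05) and −1.66 against CFU-E (SE 0.16, adjusted p = 8.04e-08). Mllt3 (AF9), a chromatin reader known to maintain human blood stem cells, was at 37.2, 39.8 and 37.0 CPM in BFU-E, 98.0, 83.3 and 79.2 CPM in MPP and 77.7, 94.3 and 84.4 CPM in CFU-E. Its gaps were alike, at −1.19 against MPP and −1.17 against CFU-E.

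Xylt1 and Extl3 build the sugar chains of proteoglycans. Xylt1, which adds the first xylose, was at 9.05, 10.7 and 7.95 CPM in BFU-E, 25.1, 24.2 and 29.3 CPM in MPP and 96.4, 104 and 88.1 CPM in CFU-E. Extl3, of heparan sulphate synthesis, was at 32.5, 28.1 and 26.6 CPM in BFU-E, 60.8, 59.6 and 71.2 CPM in MPP and 78.5, 68.1 and 63.8 CPM in CFU-E. Both dipped without each single library. Myo1d, a myosin that links membranes to actin, dipped as well and averaged 10.5 ± 1.79 CPM in BFU-E, 23.7 ± 5.76 in MPP and 115 ± 10.7 in CFU-E. Myh10, the non-muscle myosin IIB heavy chain, averaged 77.9 ± 13.1, 145 ± 18.3 and 520 ± 3.91 CPM in BFU-E, MPP and CFU-E, and was named after its values were seen. Myh9, the IIA heavy chain, had 2554, 2528 and 2464 CPM in BFU-E, 2580, 2370 and 2561 CPM in MPP and 1423, 1566 and 1638 CPM in CFU-E, so it did not dip. Wdr60, of the dynein that moves in cilia, and Cd2ap, an actin adaptor, were the dipping genes named by the rule with the weakest calls against MPP (edgeR adjusted p = 0.0447 and 0.0116), and these were lost without BFU-E 1 (0.201) and BFU-E 2 (0.0754), among others.

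**Figure D4:**
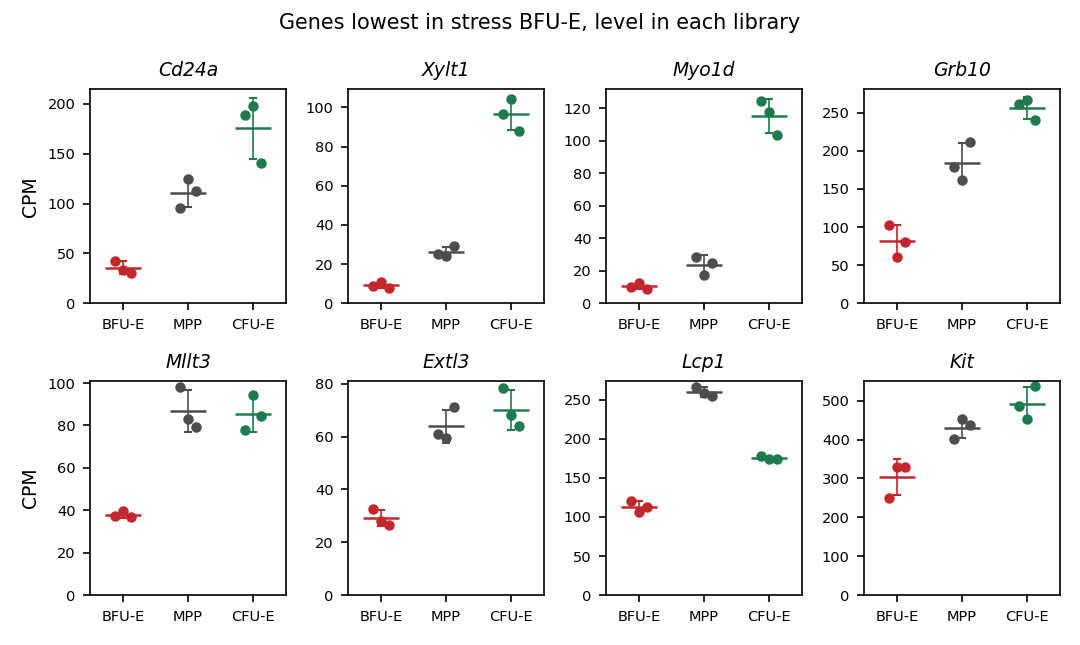
Level in CPM (vertical axis, linear, from 0) of 8 dipping genes in each library, with the stress BFU-E left of MPP and CFU-E; lines are group means and bars are ± 1 SD over 3 libraries. All 3 BFU-E libraries lie below the 6 others in each gene, which the rule for named genes required of all but Lcp1 and Kit. Cd24a and Kit encode antigens of the sort.

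Interferon response genes, induced by antiviral signalling, were lower in BFU-E than the mean in 9 of 36 tested members, and Ifi47 was higher, a call lost without BFU-E 3 (edgeR adjusted p = 0.0856). The median was −0.449, and 25 of the 36 lay below both neighbours, against 2638 of 10166 over all genes tested. The 9 members called lower were 25% of the list, against 2.78% of all genes tested. The summed level was 1283 to 1367 CPM in BFU-E, 1740 to 2005 CPM in MPP and 1420 to 1539 CPM in CFU-E, without overlap. Without single libraries 4 to 11 members were lower, the fewest without BFU-E 3. Oasl2 was at 19.2, 22.8 and 19.6 CPM in BFU-E, 82.6, 63.4 and 62.0 CPM in MPP and 31.7, 25.4 and 25.1 CPM in CFU-E, with a call against MPP (−1.76, edgeR adjusted p = 2.58e-05) and none against CFU-E (−0.42, adjusted p = 0.186). Ifi44 dipped, at 7.33, 3.69 and 3.15 CPM in BFU-E, 23.4, 18.1 and 24.2 CPM in MPP and 18.8, 12.0 and 10.4 CPM in CFU-E. The dip of Ifi44 was lost without BFU-E 2, BFU-E 3 or CFU-E 1. Parp14, chosen after its values were seen, was the other dip of the list, at 68.9 ± 6.09, 110 ± 17.2 and 100 ± 15.8 CPM in BFU-E, MPP and CFU-E, and kept it without only 3 of the 9 libraries. Of 21 genes of antigen presentation 3 were higher, all of class II, and they followed single libraries. H2-Eb1 was at 30.7, 4.71 and 3.54 CPM in BFU-E, 77.0, 27.3 and 32.5 CPM in MPP and 0 in CFU-E, which is at least 158-fold higher in BFU-E than CFU-E at a floor of 3 counts over the group, or at least 47-fold without BFU-E 1. Without that library none of the 3 was called.

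Ribosome biogenesis was lower in BFU-E in 11 of 34 tested members (32.4%, against 2.78% of all genes tested). All 34 fitted values were negative, as were 4994 of 10166 over all genes tested, and the median was −0.307. The gap lay mostly with CFU-E. The median against CFU-E was −0.492, with 24 members called, and against MPP −0.0268, with 0 called by edgeR or DESeq2 and 5 at an unadjusted p under 0.05 by edgeR. Ncl, nucleolin, was at 4475, 4509 and 4114 CPM in BFU-E, 4477, 4856 and 4765 CPM in MPP and 6141, 6126 and 6033 CPM in CFU-E, and overlapped with MPP. Without single libraries 6 to 14 members were lower, the fewest without BFU-E 1. The share of Rn45s, the precursor that many of these proteins process, was lower in BFU-E than in MPP, as given above, and its part in these values was not tested.

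Of 26 tested cyclins, kinases and inhibitors of the first gap phase 7 were higher and 2 lower than the mean, and 1 peaked, but only 2 were higher without BFU-E 1. Cdk6, a kinase that drives entry into S phase, was at 1407, 1464 and 1524 CPM in BFU-E, 1150, 1054 and 1065 CPM in MPP and 1334, 1249 and 1247 CPM in CFU-E, a peak with log2 fold changes of 0.43 and 0.20. Its gap to CFU-E (edgeR adjusted p = 0.0411) was lost without any BFU-E library, CFU-E 2 or CFU-E 3, and when genes of lower counts were also tested. The linker histone gene Hist1h1c was at 1698, 1621 and 1497 CPM in BFU-E, 1083, 1130 and 1066 CPM in MPP and 1376, 1529 and 987 CPM in CFU-E, where CFU-E 2 overlapped with BFU-E. Its peak was kept without only 3 of the 9 libraries. Of 52 tested replication-dependent histones 6 were higher and 1 peaked, and 2 to 10 were higher without single libraries, the fewest without BFU-E 1. Histone messages largely lack poly(A) tails and were counted here from total RNA. Oxidative phosphorylation had 0 of 45 members called by edgeR or DESeq2, and 2 at an unadjusted p under 0.05 by edgeR. Of 31 mitosis genes 2 were higher and 1 lower. DNA replication had 1 of 36 called, Rfc5, which was lower, and that call was lost without any BFU-E library, MPP 1 or CFU-E 2, at an edgeR adjusted p of 0.126 at most.

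Stem and progenitor genes split against the mean. Of 28 tested, 9 were higher (32.1%) and 4 lower (14.3%), where all genes tested gave 4.99% and 2.78%. Against MPP alone the median was −0.777, with 0 members called higher and 11 lower. Against CFU-E the median was 1.19, with 14 called higher and 3 lower. Meis1, a homeodomain regulator of stem cells, averaged 318 ± 19.8, 345 ± 39.4 and 78.9 ± 14.9 CPM in BFU-E, MPP and CFU-E. Meis1 did not pass the test between BFU-E and MPP (−0.11, edgeR adjusted p = 0.738). Hlf, a stem cell regulator, was already low, at 16.8, 9.51 and 13.2 CPM in BFU-E, 97.8, 116 and 88.0 CPM in MPP and 9.76, 7.62 and 12.1 CPM in CFU-E. The genes with the smallest p among those lower than the mean and between, Ces2g, Gatm, Atp1b2 and Oat, had log2 fold changes of 0.17, 0.04, 0.29 and 0.06 over MPP and −2.22, −2.42, −5.56 and −1.61 over CFU-E, a step between BFU-E and CFU-E and no dip.

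The level of the same genes in BFU-E of the resting marrow is a readout outside this contrast, except that the stress BFU-E libraries are shared. Tissue, irradiation with transplantation and the staining reagent of the sort change together between the BFU-E populations, so their effects cannot be told apart. In that table edgeR called 12 of 10702 genes (0.112%), and 1053 had an unadjusted p under 0.05; the biological coefficient of variation was 0.704, against 0.25 in the spleen fit. In the stress BFU-E libraries 0.42% to 0.738% of these genes were at 0, against 1.53% to 15.3% in the marrow BFU-E libraries, and the part of this in the comparison was not tested. All 79 peaking genes were in it. Of these, 1 was called, and the median log2 fold change of stress over marrow was −0.161. Of the 37 dipping genes in it 0 were called, with a median of −0.408, and over all genes the median was 0.0113. At an unadjusted p under 0.05 there were 22 peaking and 8 dipping genes. Where few genes can pass, a missing call does not show that levels were alike.

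F13a1 was the peaking gene called, at 37.6, 24.6 and 30.7 CPM in stress BFU-E, against 213, 380 and 389 CPM in marrow BFU-E, which is a log2 fold change of −3.40 (SE 0.30, edgeR adjusted p = 0.0205). The call was lost without stress BFU-E 2 (0.225), stress BFU-E 3 (0.152) or marrow BFU-E 2 (0.0671). Pf4 was at 285, 311 and 232 CPM in stress BFU-E, against 450, 630 and 544 CPM in marrow BFU-E, groups that did not overlap but did not pass (adjusted p = 0.163). Itga2b was at 776, 796 and 733 CPM in stress BFU-E, against 747, 1156 and 748 CPM in marrow BFU-E. Plek was at 522, 527 and 488 CPM in stress BFU-E, against 637, 741 and 395 CPM in marrow BFU-E. Both overlapped between the populations. Among the dips, Mllt3 was at 37.7, 40.5 and 37.6 CPM in stress BFU-E, against 66.7, 71.0 and 67.6 CPM in marrow BFU-E (log2 fold change −0.83, adjusted p = 0.393), and Grb10 at 104, 61.3 and 82.3 CPM, against 51.3, 70.1 and 53.9 CPM in marrow BFU-E. The 2 tables kept another transcript for 567 of their 10702 shared genes, and the stress counts differed for 276 genes, which is why stress values are close but not the same in both.

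**Figure D5:**
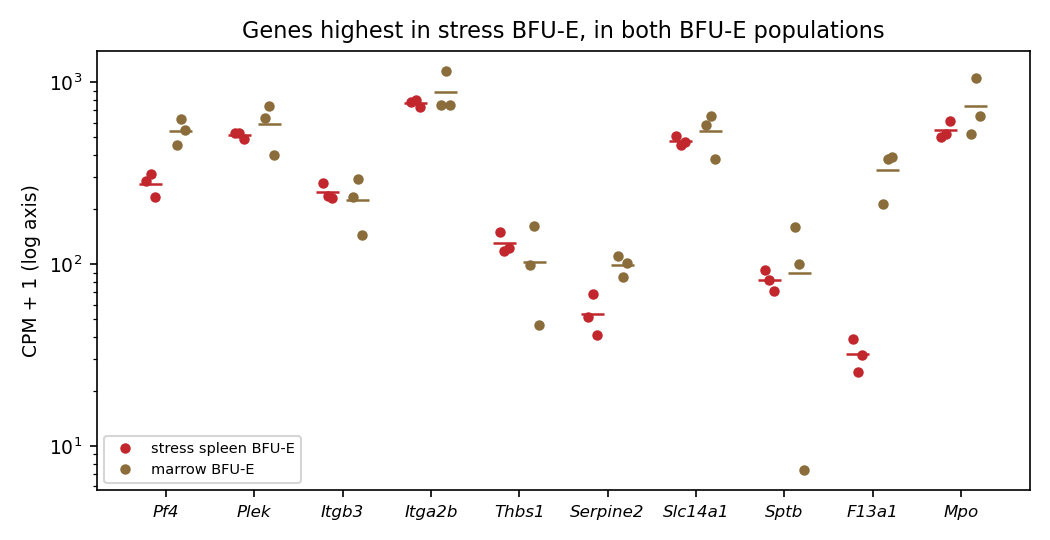
Level of 10 peaking genes as CPM + 1 (vertical axis, log scale) in each of the 3 stress spleen BFU-E libraries (left of each pair) and the 3 marrow BFU-E libraries (right), with lines at the means. Only F13a1 passed the test between the populations; Sptb spans 6.37 to 159 CPM among the marrow libraries.

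Most peaking and dipping genes had accessible chromatin near the start. An ATAC interval lay within 2500 bp of the start in 72 of 79 peaking genes in the stress BFU-E list, a share of 91.1% (95% Wilson interval 82.8 to 95.6, counting error only), in 36 of 39 dipping genes (92.3%, 79.7 to 97.3) and in 96.5% of all genes tested, which lies above the interval of the peaking genes. With intervals of score 1000 only, the share was 75.9% in peaking genes (65.5 to 84.0) and 91.0% in all genes tested. In the marrow BFU-E list the shares were 83.5%, 87.2% and 93.2%. Each population has 1 merged list, with 61661 intervals for stress and 35142 for marrow, so no replicate test is possible, and an interval found in the longer list alone shows no change. Of the peaking genes, 6 had an interval near the start in the stress list only, 0 in the marrow list only and 7 in neither. The 6 were Itgb3, Gp5, Kcnj5, Zeb2, Pde10a and Mvb12b, and among the dipping genes Lcp1 and Ifi44. Of all 10166 genes tested, 9808 had an interval near the start in the stress list and 9477 in the marrow list. How many had it in the stress list only was not counted, so these genes cannot be called particular. Mpo and F13a1 had none within the gene or near its start in either list. Over the start of Pf4 the interval spanned chr5:90771753-90772775 in stress BFU-E and chr5:90771643-90772853 in marrow BFU-E, both with the top score of 1000.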

How the data were processed

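RNA was measured in 3 libraries each of stress BFU-E, stress MPP, stress CFU-E and marrow BFU-E, from total RNA with a stranded low-input kit per the labels' protocols. The authors deposited raw counts per gene over exons, made with HOMER on mm10 with 1 transcript kept per gene, per the file headers, and the BFU-E table holds only genes with a mean of 50 counts. The gene Length column (unit other, in bases) was deposited by the authors beside the counts. STAR 2.6.0b-1, Bowtie2 2.3.4.2 and HOMER 4.8 are named in the submitters' processing notes. The strand of counting is not given in the sources used here, so that overlapping genes on opposite strands, and near-identical copies such as histone genes, are uncertain. The ATAC lists give the authors' score per interval, per the file headers, with 1 merged list per population. The deposited tables of normalised values were not used.

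Counts were fitted with edgeR 4.0.16 (TMM factors, quasi-likelihood, R 4.3.3), for genes averaging at least 50 counts, against the mean of both neighbours and against each alone, and p-values were adjusted over all genes tested. SE is the log2 fold change over the root of F. Levels in CPM are not corrected for length and are compared within a gene only. The steps were tested on simulated counts in which some genes changed in BFU-E only. Of those changed 2-fold, 62.2% were called against the mean and 52% were classed as peaking or dipping. At 1.5-fold these shares were 35.0% and 17%, so a missing call does not show that a gene was level. Floors of 3 counts and intervals cover counting error only. Library totals and their precision are given with the results.

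Genes and lists were chosen with earlier results of these data known. Named genes were the 14 peaking and 8 dipping genes with the largest smaller gap, 4 uneven genes per direction, up to 3 called members per list and direction, and the sort antigens. A peaking gene needed a mean of at least 20 CPM in BFU-E, a dipping gene in each neighbour, with no overlap between groups; clone-named and small RNA genes were left out. F2r, Syk, Gp5, Rap1b, Fli1, Vwf, Elane, Myh9, Myh10, Parp14, Gata1 and Klf1 were outside that rule. Alternatives were other size factors, DESeq2 1.42.0, count minimums, a replicate block, a fit without non-coding RNA, and each library left out; counts of list members without each library were added after seeing the data. Results for 2 genes that the rule names are not reported here.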

Additional observations from a re-analysis of the deposited data

How the results depend on the processing

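The direction of the contrast was stable for most named genes. Over 15 alternatives for the 9 spleen libraries, 33 of the 79 peaking and 15 of the 39 dipping genes kept their class in all. Dipping genes numbered 64 with DESeq2 and 68 with no filter on low counts, and genes called against MPP 668 with no filter. Leaving out single libraries gave 496 to 830 genes called against the mean, 41 to 87 peaking, 24 to 38 dipping, 100 to 194 called and between, 225 to 462 called against MPP, 1630 to 2339 against CFU-E and 93 to 118 named genes called. The low counts came without a BFU-E library. Called genes numbered 496, 547 and 501 without BFU-E 1, 2 and 3, peaking genes 41, 43 and 50, and calls against MPP 225, 248 and 255. Against marrow BFU-E, 0 to 3 of the named genes were called without single libraries, against 2 with all. The cause was not tested.

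Stress and other groups share replicate numbers, but the labels do not say that a number marks a shared animal or day. Deviations of 9 same-numbered pairs correlated at 0.0151 to 0.116, with 1 pair over 0.1, and 17 of 18 library and group combinations correlated best with the same number, a hint from the data. With the replicate block 852 genes were called, with 92 peaking, 47 dipping, 476 against MPP and 2221 against CFU-E, and 1 named gene was called against marrow BFU-E. Epor was then not called (edgeR adjusted p = 0.0521). Called genes were 64.2% higher, and 58.8% with DESeq2.

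The share of all genes tested with an ATAC interval near the start was 95.1% within 1 kb, 97.6% within 5 kb, 98.4% within 10 kb and 91.0% for intervals of score 1000. For the peaking genes it was 98.7% within 10 kb and 75.9% at score 1000. Near-zero values changed sign for 2 named genes that were not called. Cd163 was −0.008095 with the replicate block, −0.0008535 without non-coding RNA and −0.24 to 0.167 without single libraries, and Slamf1 was −0.0439 to 0.332 without single libraries.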
